A study of Homo sapiens with 13 samples.

Results

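CTCF binds a long DNA motif that has a direction, through an array of zinc fingers. It is best known for stopping cohesin as cohesin extrudes chromatin loops, so that loop anchors often carry a pair of CTCF motifs that point towards each other, and for insulating genes from enhancers on the other side of a bound site. Sites bound by CTCF are found at promoters and enhancers, and also far from both. The sites described here are the CTCF peaks of MDA-MB-231 cells that lay in none of the chromatin features mapped alongside them, and they are called solitary distal CTCF sites.

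The cells, MDA-MB-231, are a long-established human line of triple-negative breast cancer origin, and were grown under standard conditions without any treatment. Chromatin immunoprecipitation followed by sequencing had been carried out with antibodies to CTCF, to the histone marks H3K4me1 (found at enhancers), H3K27ac (found at active enhancers and promoters) and H3K4me3 (found at promoters), and to RNA polymerase II (Pol II), with 2 libraries each, and to the acetyltransferases p300/CBP, with 1 library. A single peak list was deposited for each antibody, with positions on hg19 and no height, count or score per peak. Replicates had been merged before peaks were called, so the spread between libraries and the depth behind a peak are unknown, all libraries come from 1 cell line, and the intervals given below cover counting error over sites only.

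A CTCF peak was selected on the absence of the other features: it had to share no base with a peak of the other 5 lists and to touch no window of 3 kb centred on the canonical transcription start site (TSS) of a protein-coding gene. Of 39596 CTCF peaks, 24279 met this rule, which is 61.3% of the list (95% Wilson interval 60.8 to 61.8). Of the rest, 14893 overlapped at least 1 other list. H3K4me1 was the list most often met (10196 CTCF peaks), followed by H3K27ac (7784), H3K4me3 (5814), Pol II (4878) and p300/CBP (577). Another 424 were left out because of a TSS window alone. These counts describe how the sites were chosen and are not a result.

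The edge of the rule was not sharp. Among the solitary sites, 833 had a peak of another list within 50 bp and 3047 within 1 kb. Among the peaks left out, 627 overlapped another list by at most 50 bp. On the side of the TSS rule, 154 solitary sites had a protein-coding TSS within 2000 bp, and 1856 (7.64%) touched a 3 kb window around the TSS of some basic transcript of any gene type. The median distance from a solitary site to the nearest peak of any other list was 10.3 kb, with quartiles of 3.00 and 31.1 kb. By list, the median distance was 12.7 kb to H3K4me1, 36.8 kb to H3K27ac, 47.6 kb to H3K4me3, 75.7 kb to Pol II and 200 kb to p300/CBP. The median distance to a protein-coding TSS was 54.0 kb.

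None of the lists holds sequence, so the DNA under the peaks was read from the GRCh37 genome to ask whether the solitary sites carry the CTCF motif. A matrix of 14 positions was learned from the 15317 CTCF peaks that are not solitary, so the windows at solitary peaks took no part in its making. It was learned against background windows 2 kb from all CTCF centres, those of solitary sites included. Its consensus was CCACNAGGGGGCGC, the known core of the CTCF motif, with the strand that reads this way called the motif strand. A window of 200 bp around a peak centre was said to hold a match when its best score reached the level that 5% of windows 2 kb away from CTCF centres reached. The highest score, 23.2, was reached by 65 solitary sites, all with the word CCACCAGGGGGCGC. The first 5 of them by position are shown on the motif strand with the 14 matched bases in capitals, because they show how the motif sits in unrelated surroundings.
chr1:805278-805337, plus strand, in an intron of the long non-coding RNA gene FAM41C: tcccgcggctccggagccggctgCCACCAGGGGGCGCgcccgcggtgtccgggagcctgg
chr1:27684148-27684207, plus strand, in an intron of MAP3K6: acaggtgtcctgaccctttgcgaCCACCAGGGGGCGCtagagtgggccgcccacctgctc
chr1:44784073-44784132, minus strand, in an intron of ERI3: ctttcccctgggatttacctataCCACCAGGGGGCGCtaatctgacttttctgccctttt
chr1:57434080-57434139, minus strand, in an intron of C8B: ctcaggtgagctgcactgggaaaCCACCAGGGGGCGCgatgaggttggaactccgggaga
chr2:5506170-5506229, minus strand, intergenic: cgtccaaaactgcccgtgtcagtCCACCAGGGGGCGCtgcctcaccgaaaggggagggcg

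Outside the capitals these stretches had little in common, and the peaks over them ranged from 100 to 500 bp in width. The MAP3K6 site lay 5.70 kb from the nearest peak of another list, and the site on chromosome 2 lay 113 kb from one.

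A match was present at 19436 of the 24279 solitary sites, or 80.1% (79.5 to 80.6). Over all CTCF peaks the share was 77.0%, and in 285857 windows of the same length placed every 10 kb along the genome it was 3.24%. In windows 2 kb to either side of the solitary sites themselves, 4.17% held a match. Among the CTCF peaks that were not solitary the share was 72.2% (71.5 to 72.9), an odds ratio of 1.54 in favour of solitary sites (1.47 to 1.62, p = 7.18e-72 by a two-sided Fisher's exact test and 1.44e-71 after Benjamini-Hochberg adjustment over 4 tests), and the solitary share was higher on 23 of 23 chromosomes (the autosomes and X). Sites are not replicates of the experiment, so this p speaks of these peak lists only.

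The other CTCF peaks were not alike. CTCF peaks in H3K4me1 but outside H3K27ac and away from a TSS had a match in 79.5% (78.4 to 80.5), and the solitary sites could not be told apart from them (odds ratio 1.04, 0.965 to 1.12, two-sided Fisher's exact test, adjusted p = 0.323, solitary share higher on 12 of 23 chromosomes). At the stricter score that 1% of the windows 2 kb away reach, the order turned, with 49.5% of solitary sites and 52.2% of these peaks. Distal peaks in H3K27ac had a match in 72.3% (odds ratio 1.54, 1.44 to 1.65, Fisher's exact test, adjusted p = 5.77e-33), and peaks at a TSS window in 65.2% (odds ratio 2.14, 1.99 to 2.31, Fisher's exact test, adjusted p = 7.75e-82), each lower than the solitary sites on 23 of 23 chromosomes. The lowest share, 59.3%, belonged to the 1140 distal peaks that met H3K4me3, Pol II or p300/CBP only. These 3 pairwise comparisons were added once the data were known.

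**Figure D1:**
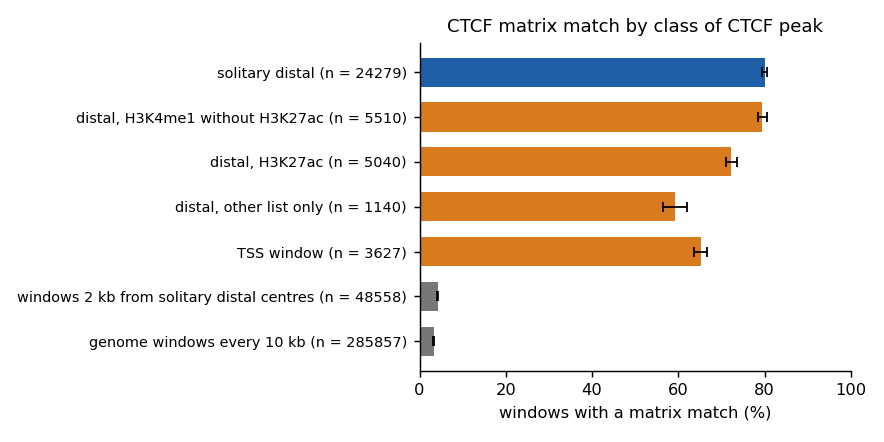
Share of 200-bp windows with a CTCF matrix match (horizontal axis, %) for each class of CTCF peak and for 2 kinds of background window, with the number of windows in brackets and 95% Wilson intervals as error bars. The solitary sites (80.1%) and the peaks in H3K4me1 without H3K27ac (79.5%) sit together at the top, and both backgrounds lie under 5%.

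Width is the only measure of a peak that the list allows, since a peak is a run of 50-bp bins above a threshold. Solitary sites had a median width of 300 bp (quartiles 200 and 350), against 350 bp (250 and 400) for the other CTCF peaks. The share with a match rose with width among solitary sites, from 59.0% at 100 bp to 72.3% at 150 to 200 bp, 81.5% at 250 to 300 bp, 87.5% at 350 to 400 bp and 93.9% at 450 to 500 bp. It was lower again, at 78.2%, in the 216 sites of 550 bp or more. In each of these 6 bins the other CTCF peaks had the lower share, from 36.5% at 100 bp to 90.9% at 450 to 500 bp. The distance between the classes shrank from 22.5 points at 100 bp to 2.92 points at 450 to 500 bp, and was 12.3 points in the widest bin. The search covered 200 bp around the centre at every width. It went past the edges of the narrowest peaks and left out the ends of the wide ones.

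**Figure D2:**
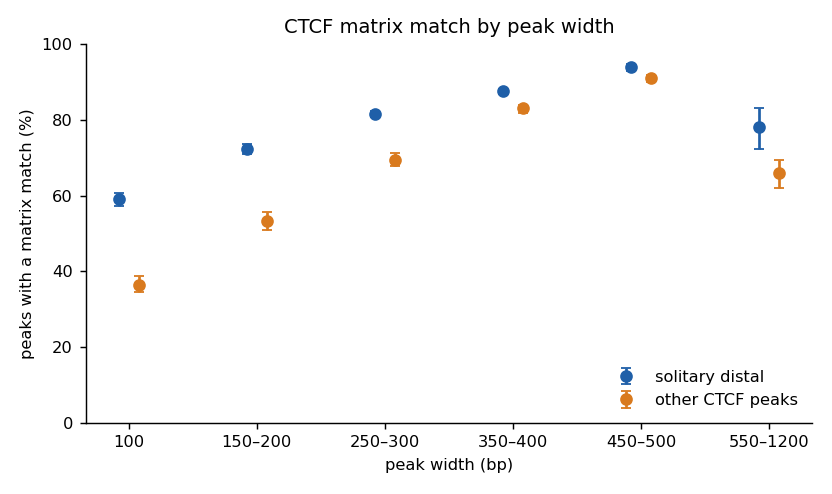
Share of CTCF peaks with a matrix match (vertical axis, %) against peak width (horizontal axis, bp) for solitary distal sites and all other CTCF peaks, with 95% Wilson intervals. Solitary sites lie above the others in all 6 bins, by 22.5 points at 100 bp and by 2.92 points at 450 to 500 bp.

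The match sat close to the middle of the peak. Its median distance from the centre was 18.0 bp, and 90.7% of the solitary matches lay within 50 bp, against 53.3% of the matches found in genome windows. The motif strand was the plus strand in 50.4% of solitary matches (49.7 to 51.1). A single match was the rule: 76.3% of the solitary sites held 1, 3.46% held 2 and 0.334% held 3 or more. Distance from other features made little difference, with a match in 79.0% of the solitary sites that lay within 1 kb of another list and in 81.5% of those over 100 kb away.

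**Figure D3:**
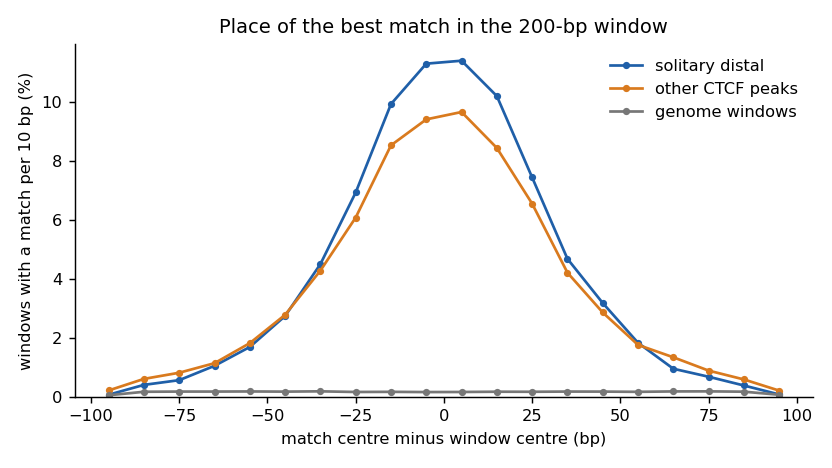
Place of the best match in the 200-bp window (horizontal axis, bp from the window centre) as a share of all windows per 10 bp (vertical axis, %) for solitary sites, other CTCF peaks and genome windows. Both kinds of CTCF peak pile up around the centre, where 64.1% of the solitary matches lie within 25 bp, while the few matches of genome windows form a flat line near 0, with 25.8% of them within 25 bp.

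The 4843 solitary sites without a match were narrower, with a median width of 250 bp against 300 bp. Their G+C content (median 44.5%) was close to that of the sites with a match (46.0%). The letters TGANTCA, to which AP-1 factors such as Fra-1 bind, occurred on either strand in 6.01% (5.37 to 6.71) of them and in 6.19% of genome windows, so they were no more common than along the genome. Among all solitary sites these letters were present in 5.32% (5.05 to 5.61), against 7.44% (6.78 to 8.16) of the CTCF peaks in H3K4me1 without H3K27ac and 7.38% (6.69 to 8.14) of those in H3K27ac. The E-box CACGTG was found in 2.35% of solitary sites and in 1.76% of genome windows. These are matches of letters and say nothing of binding.

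Solitary sites stood in DNA poorer in CpG, the dinucleotide that can carry DNA methylation, which hinders CTCF binding at some positions of its motif. Their 200-bp windows had a median G+C of 45.5% and 2.82 CpG on average, against 52.0% and 4.20 in CTCF peaks in H3K4me1 without H3K27ac, 54.0% and 6.74 in those with H3K27ac, and 62.0% and 12.5 at TSS windows. Genome windows had 40.0% and 1.96. The motif itself followed the same order. A CpG lay inside 25.1% (24.5 to 25.7) of the solitary matches, 33.4% of those in H3K4me1 without H3K27ac, 43.9% of those in H3K27ac and 66.3% of those at TSS windows. At positions 12 and 13 of the motif, counted from 1 at its 5′ end, the CpG was present in 20.3% of solitary matches and 35.5% of all others, and at positions 2 and 3 in 3.75% and 13.4%. In place of it, the solitary matches more often had A at position 3 (81.7% against 69.6%) and A at position 13 (49.5% against 39.6%), and at position 5 they had T in 40.7% against 29.9%. The data hold no methylation measurement.

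The 19436 matches were spelled in 4747 different ways, of which 2173 occurred at a single solitary site. A few spellings recurred, and the commonest ones are shown because one of them did not behave like the rest. The capitals are the whole matched word.
commonest word, 165 solitary sites: CCACCAGAGGGCTC
next commonest, 155 solitary sites: CCAGCAGAGGGCAG
next, 124 solitary sites: CCACCAGGGGGCAG
next, 120 solitary sites: CCACTAGATGGCAG
the word least shared with other CTCF peaks among the commonest 10, 102 solitary sites: CCACTAGATGTCAG

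The word CCACCAGAGGGCTC was the best match at 165 solitary sites and at 37 other CTCF peaks. It occurs 227 times in the genome, and 89.0% of those occurrences lay in a CTCF peak, 72.7% in a solitary one. Unlike the other words, it came with its surroundings. Over the 30 bases on each side of the word, 84.4% of the bases were the commonest one of their position, against 30.7% over all solitary matches and 32.2% for the word CCAGCAGAGGGCAG. The widest 4 of the sites eligible for printing are shown with the commonest base at each position, on the motif strand and with the word in capitals.
commonest base at each position: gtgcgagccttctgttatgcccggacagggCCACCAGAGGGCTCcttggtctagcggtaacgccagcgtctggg
chr14:56714368-56714441, plus strand: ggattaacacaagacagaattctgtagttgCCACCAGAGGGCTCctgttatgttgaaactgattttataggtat
chr1:94316455-94316528, minus strand: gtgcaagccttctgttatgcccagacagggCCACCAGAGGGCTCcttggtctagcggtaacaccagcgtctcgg
chr3:195721397-195721470, minus strand: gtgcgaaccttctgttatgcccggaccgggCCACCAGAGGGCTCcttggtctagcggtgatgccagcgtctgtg
chr9:140156802-140156875, minus strand: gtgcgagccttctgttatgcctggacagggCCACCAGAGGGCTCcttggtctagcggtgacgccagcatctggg

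The sites on chromosomes 1, 3 and 9 were near copies of each other along the whole stretch, while the site on chromosome 14 shared the word alone. Solitary sites with this word had a median width of 300 bp, the same as all solitary matches. A partial likeness was seen for CCACTAGATGTCAG, the best match at 102 solitary sites and at 15 other CTCF peaks, where 53.2% of the flanking bases were the commonest one, mostly on the 5′ side of the word. Of its 174 occurrences in the genome, 66.1% lay in a CTCF peak.

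Over the autosomes and X, the density of solitary sites spanned a narrower range than that of the other CTCF peaks. It ranged from 5.86 per Mb on X to 12.2 per Mb on chromosome 22, while that of the other CTCF peaks ranged from 1.43 per Mb on X to 17.6 per Mb on chromosome 19. On Y, solitary sites were listed at 1.09 per Mb and other CTCF peaks at 2.48 per Mb. Whether these cells carry a Y chromosome was not tested, so values for Y describe listed positions only. Over the same 23 chromosomes without Y, the density of solitary sites followed that of protein-coding genes with Pearson's r = 0.700 and Spearman's rho = 0.773 (n = 23), and the other CTCF peaks followed it with r = 0.927 and rho = 0.845. The chromosomes share 1 library pair and the TSS windows of the rule depend on genes, so both values are descriptions. Among them, the share of CTCF peaks that were solitary was lowest on chromosomes 19 (40.0%), 20 (45.0%) and 17 (45.6%), and highest on 18 (77.3%) and X (80.4%). On Y it was 30.5% (25 of 82 peaks).

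**Figure D4:**
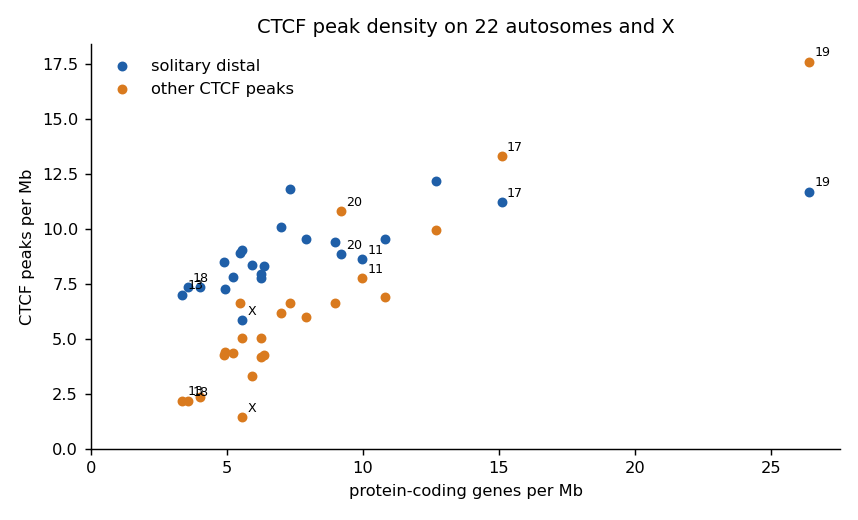
CTCF peaks per Mb (vertical axis) against protein-coding genes per Mb (horizontal axis) for the 22 autosomes and X; each chromosome has 1 point for solitary sites and 1 for other CTCF peaks. Other CTCF peaks span 1.43 to 17.6 per Mb and solitary sites 5.86 to 12.2, so the other peaks are the denser class on chromosomes 17, 19 and 20 only. The 4 chromosomes with the lowest and the 3 with the highest solitary share are named.

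The X chromosome stood apart in width. Its 886 solitary sites had a median width of 200 bp, against 300 bp for the 23368 on autosomes, yet a match was present in 84.7% (82.1 to 86.9) of them, against 79.9% (79.4 to 80.4). The other CTCF peaks on X were narrower as well, with a median of 250 bp against 350 bp on autosomes. Their share with a match went the other way, at 66.7% (60.1 to 72.6) on X and 72.5% (71.7 to 73.2) on autosomes. The 25 solitary sites listed on Y had a match in 40.0% (23.4 to 59.3).

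The place of the solitary sites relative to genes was close to that of points taken along the genome. Their centre lay in an intron in 54.1% (53.5 to 54.7), against 55.3% of those points and 45.7% of the other CTCF peaks. The rule fixes part of this contrast, since it put all peaks at TSS windows, with 36.7% in introns, among the others. Among CTCF peaks in H3K4me1 without H3K27ac the intron share was 53.1% (51.8 to 54.4), close to that of the solitary sites. Introns of protein-coding genes held 40.7% of the solitary sites, and 39.4% lay between genes. Exons held 6.50%, against 4.36% of the points, split into non-coding exons (2.36%), UTRs (2.15%) and coding exons (1.99%). The share with a match was between 78.6% and 81.2% in each of these places, so the motif was as common in coding exons (81.2%, 77.5 to 84.4) as between genes (80.3%, 79.4 to 81.0).

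Neighbouring solitary sites on a chromosome lay a median of 67.0 kb apart, with quartiles of 21.9 and 154 kb. Since the motif has a direction, each pair of neighbours with a match was put into 1 of 3 orders: convergent (the motifs point towards each other), divergent (they point away from each other) or tandem (they point the same way). Of the 9701 pairs up to 100 kb apart, 20.1% (19.4 to 21.0) were convergent, 28.5% (27.6 to 29.4) divergent and 51.4% tandem. Of the 5447 pairs from 100 to 500 kb apart, 31.3% (30.1 to 32.6) were convergent, 20.6% (19.5 to 21.7) divergent and 48.1% tandem. The order of the 2 shares thus turned with distance: divergent pairs were the more frequent on 23 of 23 chromosomes at the shorter spacing, and convergent pairs on 22 of 23 at the longer one, with a tie on the remaining chromosome. Convergent and divergent pairs must alternate along an unbroken row of matched neighbours. An excess of divergent pairs at short spacing therefore goes with convergent ones at long spacing, and the 2 chromosome counts are not independent.

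In finer steps, divergent pairs reached 30.9% at 10 to 30 kb, where 17.2% were convergent. The shares came nearer to each other at 30 to 100 kb (27.5% and 22.7%), and convergent pairs led from 100 kb on, with 34.0% against 19.2% at 200 to 500 kb and 35.0% against 17.5% at 500 to 1000 kb. Under 1 kb, 62.4% of 197 pairs were tandem. When pairs with another CTCF peak between them were left out, the share of convergent pairs was 20.1% up to 100 kb and 32.8% from 100 to 500 kb, and with the stricter score it was 21.1% and 31.6%. Neighbouring pairs of the other CTCF peaks went the same way, with 22.2% convergent and 26.9% divergent up to 100 kb, and 28.3% and 23.1% from 100 to 500 kb; the difference from the solitary sites was not tested. The spacing steps were set once the data were known.

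**Figure D5:**
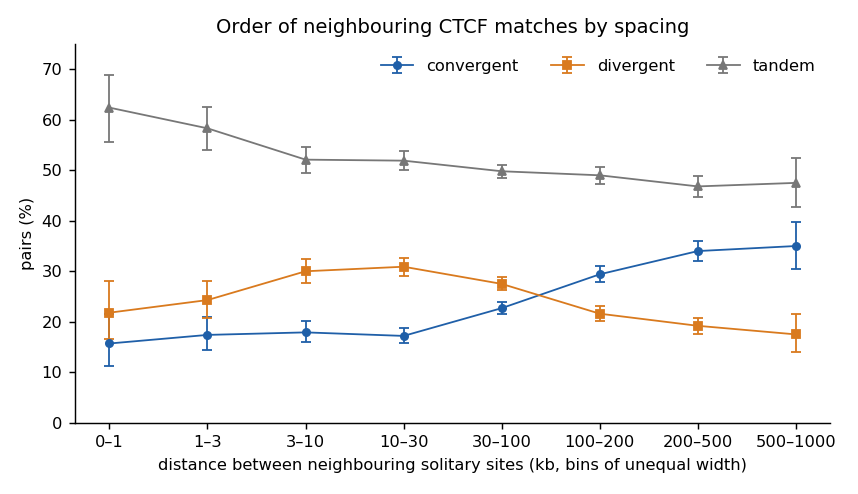
Share of neighbouring solitary pairs (vertical axis, %) that are convergent, divergent or tandem, by the distance between the sites (horizontal axis, kb, in 8 bins of unequal width), with 95% Wilson intervals. Divergent pairs lie above convergent ones up to 100 kb and below them from 100 kb on, and tandem pairs fall from 62.4% to between 46.8% and 49.0% past 100 kb.

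Most solitary sites stood alone or in short runs. A run is a stretch of solitary sites uninterrupted by any other listed peak, of CTCF or of the other 5 lists. Of 16084 runs, 69.4% held a single site, while 2164 sites (8.91%) were in runs of 5 or more. Several of the longest runs and most crowded megabases, though not all of them, lay among families of genes that sit side by side in many copies. An exception was 50 to 51 Mb of chromosome 19, the third most crowded megabase, with 37 solitary sites among 66 CTCF peaks, a match at 23 of them and 39 protein-coding genes of many kinds, such as AKT1S1, IRF3 and POLD1. The longest run held 35 sites, of which 31 had a match, over 0.626 Mb of chromosome 15 (82573601 to 83199901), among copies of GOLGA6L, CSPG4 and UBE2Q2 genes and pseudogenes. Its 31 matches had 14 different spellings, and 1 of these, CCGGCAGGTGGAGC, occurred at 7 sites. The run of 17 sites on chromosome 1 (12937101 to 14052651) lay largely in the cluster of PRAMEF genes, a family related to the melanoma antigen PRAME, with a match at all 17 and 8 spellings. Over the span of the 31 annotated PRAMEF genes, 16 of 16 CTCF peaks were solitary, and 0 of them had a PRAMEF gene within 1 kb. On chromosome 1 as a whole, 58.6% of CTCF peaks were solitary.

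The most crowded megabase was 106 to 107 Mb on chromosome 14, with 49 solitary sites among 52 CTCF peaks and a match at 45 of them. It lies in the immunoglobulin heavy chain locus, whose V gene segments are joined to D and J segments in B cells, and CTCF sites near these segments are known to take part in folding the locus there. Over the whole span of the 127 annotated IGHV segments, pseudogenes included (0.882 Mb), 65 of 74 CTCF peaks were solitary, or 73.7 per Mb, and 49 of them had a segment within 1 kb. On chromosome 14 as a whole, 62.0% of CTCF peaks were solitary. Segments of antigen receptor loci are not annotated as protein-coding genes, so no TSS window of the rule was centred on them. Of the 59 matches, 51 were on the minus strand, and where a matched site had a segment within 1 kb, the motif was on the strand of that segment in 42 of 43 cases. H3K27ac was listed at 2 peaks in this span, and Pol II at 0.

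The other antigen receptor loci were similar in part. Over the 54 TRAV segments of the T cell receptor alpha locus, 31 of 41 CTCF peaks were solitary, 25 of 26 matches were on the plus strand, and the motif was on the strand of the nearby segment in 17 of 17 cases. Over the 73 IGLV segments, 38 of 45 peaks were solitary, with the motif on the strand of the segment in 14 of 16 cases. Over the 49 TRBV segments of the T cell receptor beta locus, 22 of 31 peaks were solitary. That was near the share of all CTCF peaks on chromosome 7, which was 71.6%. The 19 TRBV matches were split into 11 on the plus and 8 on the minus strand, and the motif was on the strand of the nearby segment in 6 of 8 cases. The solitary share of all CTCF peaks was 62.0% on chromosome 14, which holds TRAV, and 55.1% on chromosome 22, which holds IGLV. In the kappa light chain locus, which has a pair of V clusters in opposite directions, solitary sites made 2 of the longest runs. The run of 20 sites at 89173651 to 89626551 of chromosome 2 had 15 of 18 matches on the minus strand, as were 37 of its 39 annotated V segments, and the run of 13 sites at 89894651 to 90144251 had 11 of 12 on the plus strand, as were all 25 of its segments. Only 3 of the 38 solitary sites of that locus had a segment within 1 kb, in contrast to the heavy chain locus, and the p300/CBP list had 160 peaks in its span. MDA-MB-231 is no lymphoid line. The gene families were picked after the crowded regions had been seen, so no test was made.

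The PSG genes of chromosome 19, which encode pregnancy-specific glycoproteins of the placenta, showed another pattern. Between 43225790 and 43773682, 28 of 34 CTCF peaks were solitary and 27 had a match, with 13 on the plus and 14 on the minus strand. On chromosome 19 as a whole, 40.0% of CTCF peaks were solitary. Of the 20 matched sites within 1 kb of a PSG gene, 8 had the motif on the strand of the gene. H3K4me1 had 37 peaks and H3K27ac 28 in the same span, so that solitary sites there stood between marked regions.

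At single loci, the nearest solitary site to the TSS was looked up for 17 genes known for CTCF sites or long-range control, or from the study of this line. The distance ranged from 2.51 kb at FIRRE, a long non-coding RNA of the X chromosome, to 397 kb at EPHA4, a receptor tyrosine kinase. Within 100 kb of the TSS there were 5 solitary sites at H19, of 11 CTCF peaks, and 5 each at HOXD13, TAL1 and LMO2, of 7 each. There were 0 at PCDHA1 (of 6 CTCF peaks), SOX9 (of 3), KCNJ2 (of 2) and EPHA4 (of 1). HMGA2 had no CTCF peak of any kind in that distance. Over the whole list 61.3% of CTCF peaks were solitary, and differences between these loci were not tested. At SHH, which encodes a secreted morphogen, a solitary site with a match lay 7.36 kb from the TSS in an intron, 0.100 kb from a peak of another list. At PDGFRA, a receptor for platelet-derived growth factor whose insulation by CTCF has been studied in glioma, it lay 5.69 kb from the TSS in an intron. The nearest one at FOSL1, the gene of Fra-1, lay 81.9 kb away and abutted a peak of another list, and at EDN1, the endothelin gene, it was 21.0 kb away.

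The solitary sites of the H19 locus, 5 of 11 CTCF peaks within 100 kb of the TSS, are described because 3 of them missed the matrix. H19 is an imprinted RNA gene next to IGF2, and CTCF binds a control region between them on the unmethylated copy. The 3 solitary sites at chromosome 11, 2020201 to 2020401, 2021001 to 2021301 and 2021951 to 2022101, had best words that scored 7.68, 6.79 and 7.61, below the 11.1 needed for a match, all on the minus strand. They are printed with the words in capitals.
site at 2020201: CCGAGAGGCGGCAG
site at 2021001: CCGCGCGGCGGCAG
site at 2021951: CCGCGTGGCGGCAG

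These words were alike among themselves and shared the ending GGCGGCAG, and each held CpG at positions 2 and 3, which 3.75% of the solitary matches did. They were 200, 300 and 150 bp wide and lay 0.150, 0.950 and 1.40 kb from the nearest peak of another list. The other 2 solitary sites within 100 kb of the TSS scored 18.4 (CCACTAGATGGCAG) and 13.3 (CCTCACGGGGGCGC).

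The extremes of width and isolation were of different kinds. The widest solitary sites, of 1050 bp, lay near chromosome ends, at chr1:544701-545751 and chr18:96551-97601, and each held 3 or more matches in its central 200 bp. So did the next widest, chr9:141020651-141021601 (950 bp), and chr14:107147501-107148401 (900 bp). The site at chr1:149379001-149379901, also 900 bp wide, held none, with a best score of 6.16. The 5 sites farthest from any other list were listed on Y, which these cells were not tested to carry, and in introns of PTPRD. PTPRD is a receptor tyrosine phosphatase gene on chromosome 9. The PTPRD site at 9942851 to 9943051 lay 2143 kb from the nearest peak of another list and carried the word CCACCAGAGGGCAC with a score of 21.5, while the PTPRD sites at 10366251 and 9998601 scored 10.4 and 9.08, under the limit.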

How the data were processed

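Peak lists of CTCF, H3K4me1, H3K27ac, H3K4me3, Pol II and p300/CBP in MDA-MB-231 cells were used. The 2 inputs were not analysed here. Reads had been aligned by the authors to hg19 (their methods name BWA-backtrack, the submitters' processing notes Bowtie2), binned in PASHA (50 bp, unique reads only), merged over replicates and thresholded (at 50 for CTCF). The deposited positions are in base pairs, with no count or score per peak, and depth is unknown. No stretch of sequence was printed from UTRs or from chromosome 8. The CTCF list is named neither scaled nor background-subtracted. All 467382 positions are 1 past a multiple of 50, and the end was read as the first base after the peak.

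Members and lists were chosen with earlier results of these data known. TSSs (19894) came from GENCODE on GRCh37, and sequence from GRCh37, which has no repeat masking here. The matrix started from the 8-base word GGGGGCGC, most enriched in the CTCF peaks that are not solitary, and was refined over 15 rounds. Shares have 95% Wilson intervals, and Fisher's exact tests were two-sided and adjusted over 4 tests. Sites named singly were the 5 highest scores (ties by position), the 5 widest, the 5 farthest from other lists, the longest runs and densest megabases, and the nearest to 17 TSSs. Segments of a gene family over 1 Mb from the next were left out of its span. Interval and matrix functions were tested on simulated data. Python 3.11.15, NumPy 2.4.6, SciPy 1.17.1, statsmodels 0.14.6 and matplotlib 3.10.9 were used. Alternatives changed the overlap, width, TSS set, lists, score, window searched and spacing.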

Additional observations from a re-analysis of the deposited data

How the results depend on the processing

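Of 105 values recomputed under other settings, 75 stayed within the interval or on the side of the threshold of the main value and 30 moved. None turned in direction: the odds ratio for a match stayed above 1 in all settings tried, from 1.16 at the score that 1% of windows reach to 2.03 with a matrix learned from the solitary sites, and it was 1.98 over 4 strata of width and, added after the data had been seen, 1.85 over 4 strata of G+C.

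The share of CTCF peaks that are solitary, 61.3%, moved to 56.0%, 53.8% and 40.3% (15965 sites) with no other list within 500 bp, 1 kb and 5 kb, to 65.3% when the CTCF centre had to lie in the other peak, to 57.0% (13948 sites) in peaks not narrower than the median, to 56.6% with all basic TSSs, 58.0% with 10 kb windows and 62.4% with no TSS condition, to 63.2% with the histone lists only and 61.8% without p300/CBP, to 62.0% with close CTCF peaks joined and to 60.8% on autosomes. The share with a match, 80.1%, became 87.3% in the wider peaks (median width 350 bp), 79.5% with the histone lists only, 79.4% without p300/CBP, 80.7% with peaks joined, 49.5% at the stricter score, 72.6% over the whole peak and 84.1% with the matrix learned from solitary sites. The intron share, 54.1%, became 54.8% with all basic TSSs, 53.4% with the histone lists only and, added after the data had been seen, 55.0% without peaks within 5 Mb of the longest undetermined stretch. The convergent share, 20.1%, became 19.2% with no other list within 5 kb, 19.3% in the wider peaks, 21.1% at the stricter score, and 17.3% and 24.2% with neighbours up to 20 and 500 kb apart. The settings of the score, the window searched and the matrix kept the same sites and changed what counts as a match; the others changed which sites or pairs were counted.

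No paired analysis was possible because replicates were merged before peaks were called, so no replicate was left out either. A stricter signal threshold was not run, since the lists hold no heights.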
